A study of Mus musculus with 18 samples.

Results

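Naive CD4 T cells that lack STAT3 were exposed for 3 h to interleukin 27 (IL-27) or to interleukin 6 (IL-6), and the 2 responses are set directly against each other here. The comparison uses 6 arrays, 3 with IL-27 and 3 with IL-6, out of 18 in the series, and was read over 11971 genes of the 18193 that have a probe set with a single gene symbol on the array. All cells were primary T cells from spleen and lymph nodes of mice of strain C57BL/6J, sorted as CD4+CD44-CD62L+CD25-. The STAT3-deficient mice carried Cd4-Cre and the Stat3 allele STAT3<tm1Dlv>, so that the deletion is driven by the Cd4 promoter in cells of the T lineage. Both cytokines were given at 20 ng/ml. The STAT3-deficient cells kept in medium alone and the wild type cells with IL-6 or IL-27, 3 arrays each, serve for comparison, and the labels do not say whether wild type mice carried Cre. The submitters describe each condition as a biological triplicate, and nothing in the labels ties an array to a mouse, culture or day. The p-values therefore measure the spread between samples, estimated for each gene over all 18 arrays, wild type included. That estimate can be narrower than the spread of the 6 arrays compared.

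IL-6 and IL-27 belong to one cytokine family and share the signalling chain encoded by Il6st, which IL-6 engages through the receptor encoded by Il6ra and IL-27 through the one encoded by Il27ra. Receptor-bound Janus kinases then phosphorylate STAT proteins, STAT3 among them, which enter the nucleus and bind DNA. IL-6 is known as an inducer of STAT3-dependent genes in T cells, and IL-27 for a response that includes T-bet, interferon-type genes and the checkpoint ligand PD-L1, which is named in the title of the series.

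The 6 arrays carried the markers of the labelled cell type. Cd3e, a chain of the T cell receptor complex, lay between 6374 and 8535 signal units as deposited, and Il7r, the receptor for IL-7 on resting T cells, between 20830 and 27970. Cd44, which marks memory cells, stayed between 194.3 and 413.9 units. The probe set of Stat3 with the highest mean gave log2 levels of 10.19, 10.36 and 10.18 in STAT3-deficient cells in medium and lay 1.11 ± 0.12 below wild type (SE, limma, adjusted p = 1.73e-05). Of the other 3 probe sets of Stat3 in use, 1 was also lower in STAT3-deficient cells in medium (means of 10.11 against 11.03 in wild type) and the others were not (8.88 against 8.08 and 8 against 7.88). The sources used here do not say which part of the transcript each reads. B cell and myeloid transcripts were higher in the STAT3-deficient than in the wild type arrays: the mean log2 level of 14 B cell markers was 8.38 to 9.22 with IL-6 and 8.56 to 9.17 with IL-27, against at most 7.56 in any wild type array. Between the cytokines these ranges overlapped, as did those of 16 myeloid markers (8.31 to 8.8 with IL-6, 8.5 to 8.78 with IL-27), and of 39 markers of B, myeloid, CD8 T, NK and red blood cells 0 passed the limma test between them, with 1 at an unadjusted p under 0.05.

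The largest component of variance among the 6 arrays did not follow the cytokine. This component, with 41.3% of the variance, placed IL-6 array 1 beside IL-27 arrays 1 and 2, and IL-27 array 3 beside IL-6 arrays 2 and 3. Over all genes, IL-6 array 1 had correlations of 0.9792 and 0.9802 with IL-27 arrays 1 and 2 but of 0.9618 and 0.9661 with the other IL-6 arrays. Leading genes of the component included Gdpd3, Oasl2, Egr3 and Cd69, a surface marker of recent activation whose log2 level was 10.59 in IL-6 array 1 and 12.43 and 12.86 in the other IL-6 arrays. The genes that differed by cytokine, given below, were selected on these same labels, so their order on the 6 arrays is no check against this component. Counts are given with all 6 arrays and without IL-6 array 1 and IL-27 array 3, a choice made after seeing the data. This pair is said below to stand apart because each lies away from its own group on this component. The 4 arrays that then remain also lie on opposite sides of this component, IL-27 on one side and IL-6 on the other. Its genes therefore enter that second count. Wherever that set is cited below, cytokine and component cannot be told apart, so passing there is no independent support.

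**Figure D1:**
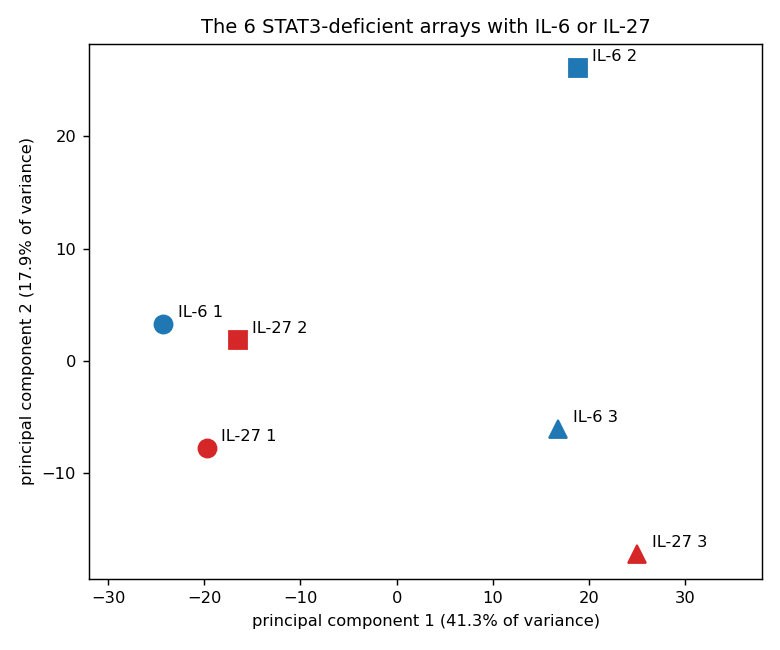
The first 2 principal components of the 6 STAT3-deficient arrays, with the share of variance on each axis; blue points are IL-6 arrays, red points IL-27 arrays, and circle, square and triangle stand for samples numbered 1, 2 and 3. IL-6 array 1 lies with IL-27 arrays 1 and 2, and IL-27 array 3 lies on the side of IL-6 arrays 2 and 3.

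Without STAT3, IL-27 left 46 genes higher than IL-6 did and 1 gene lower. These 47 genes were 0.393% of the genes tested (limma on log2 of signal plus 32, with Benjamini-Hochberg adjustment and a threshold of 0.05 on the adjusted p). Among the 46 were the interferon-inducible GTPases of the Gbp and Irg families, the transcription factors Irf1, Irf8, Tbx21 and Bcl6, the feedback inhibitor Socs1, the chemokine Cxcl10 and Cd274, which encodes PD-L1. In each of the 46, all 3 IL-27 arrays lay above all 3 IL-6 arrays, an arrangement that 4.57% of all genes showed. The 46 were selected on these same arrays, so this order follows largely from the selection. The difference was at least 2-fold in 14 of them and ranged from 0.34 (Psma7, a proteasome subunit) to 2.02 (Cxcl10) on the log2 scale. At an unadjusted p under 0.05, 353 genes had the higher and 280 the lower mean with IL-27, and the median difference over all genes was 0.005 with a median SE of 0.185. These counts, and the 46 and 1 called, are out of 11971 genes and form the background for the list counts below. Without the pair of arrays that stand apart, 191 genes passed, 123 higher and 68 lower with IL-27, and 40 of the 47 were among them. The count was 24 without IL-6 array 2, 29 without IL-6 array 3, 26 without IL-27 array 1 and 31 without IL-27 array 2. It was 13 with median centring, 13 with a model of only the 9 STAT3-deficient arrays and 17 with only the 6 arrays compared, all of them higher with IL-27. Calhm6, Wars, Icam1, Notch1 and Bcl6 were among the genes that lost the call in both of these smaller models. Within the 46, 29 genes had further probe sets, 51 in all. Of those 51, 48 were above 0, with a median of 0.56, and 33 had an unadjusted p under 0.05. Only 7 of the 51 passed the adjusted threshold when every probe set was tested on its own.

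**Figure D2:**
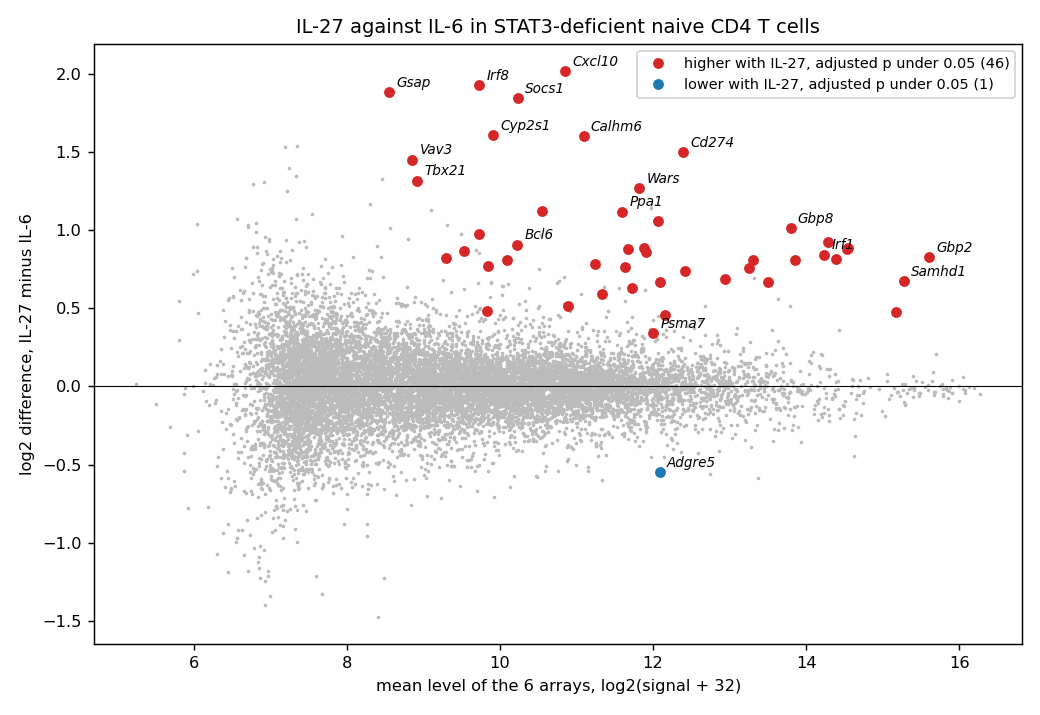
Log2 difference between IL-27 and IL-6 in STAT3-deficient cells (vertical axis) against the mean log2 level of the 6 arrays (horizontal axis), one point per gene for 11971 genes; red points are the 46 genes higher with IL-27 and the blue point is Adgre5. The called genes lie almost entirely on the upper side, from 0.34 to 2.02, at levels from below 9 to above 15.

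The transcription factor Irf8, an interferon regulatory factor, had the lowest adjusted p together with Ppa1. Its log2 level was 8.08, 8.05 and 7.58 in medium, 8.98, 8.63 and 8.69 with IL-6, and 10.96, 10.65 and 10.48 with IL-27. The lowest IL-27 array was above the highest IL-6 array, and the difference was 1.93 ± 0.18 (SE, 3.8-fold, 95% interval 1.55 to 2.3, limma adjusted p = 2.12e-05, n = 3 against 3). Irf1, an activator of interferon-type promoters, was at 14.03, 13.58 and 13.83 with IL-6 and at 14.72, 14.7 and 14.55 with IL-27. Its groups did not overlap either, and they differed by 0.84 ± 0.09 (adjusted p = 8.92e-05). Of 8 interferon regulatory factors tested, these 2 were called higher with IL-27, beside 46 of all 11971 genes tested. The median of the list was 0.29 against 0.005 over all genes. The same 2 passed without the pair of arrays that stand apart, where cytokine and component coincide. Irf4, which acts in activated T cells, stood at 10.89, 10.97 and 12.34 with IL-6 and at 12.2, 12.39 and 13.02 with IL-27; these values overlapped, and the difference of 1.14 ± 0.45 did not pass the test (adjusted p = 0.748). Irf7 had nearly the same mean with both cytokines (0.15, 95% interval -0.16 to 0.47).

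Socs1, which blocks Janus kinases and interferon signalling, was at 7.06, 7.74 and 7.46 in medium, 9.7, 8.9 and 9.35 with IL-6 and 11.4, 11.31 and 10.78 with IL-27. The 3 groups formed 3 separate steps, and IL-27 exceeded IL-6 by 1.84 ± 0.20 (3.59-fold, adjusted p = 8.92e-05). Socs3, which binds the receptor chain encoded by Il6st and limits IL-6 signalling, was at 8.82, 8.73 and 8.79 in medium, 9.27, 9.93 and 9.45 with IL-6 and 10.03, 10.19 and 10.42 with IL-27. Here too the IL-27 arrays lay above the IL-6 arrays, but the difference of 0.66 ± 0.15 did not pass (adjusted p = 0.0766). Among its other probe sets, 1 gave 1.12 ± 0.20 and passed when every probe set was tested on its own (limma adjusted p = 0.0119), and 1 gave 0.79 ± 0.31 and did not (adjusted p = 0.855). Of the other feedback inhibitors in the list of 16, which holds the SOCS and PIAS families and several phosphatases, none passed, and the median of the list was 0.01. Of 21 receptor chains and Janus kinases 0 passed with limma and 6 had an unadjusted p under 0.05, 5 of them higher with IL-27. Over all 11971 genes tested, 633 had an unadjusted p under 0.05, 353 of them higher. The arrays did not overlap in 5 members that were higher and 3 that were lower with IL-27, beside 4.57% and 3.61% of all genes tested. Il6ra differed by -0.13 (95% interval -0.48 to 0.23), Il6st by 0.15 (-0.09 to 0.4) and Il27ra by -0.01 (-0.3 to 0.28). In that list Il18r1, the receptor for IL-18, passed once the pair of arrays that stand apart was left out.

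On its probe set with the highest mean, Stat3 itself gave a higher signal with IL-27. In STAT3-deficient cells its log2 level was 11.32, 11.13 and 11.29 with IL-6 and 12.13, 12.18 and 11.72 with IL-27. The difference was 0.76 ± 0.12 (adjusted p = 0.00338), on a probe set whose signal lay 0.91 below wild type with IL-27 and 1.99 below it with IL-6. Its mean with IL-27 in STAT3-deficient cells, 12.01, was above that of wild type cells in medium, 11.35. The other probe sets of Stat3 differed by 0.60, 0.40 and 0.11, and none of them passed when every probe set was tested on its own. Of the 6 STAT genes tested Stat3 was the only one to pass. Stat2 differed by 0.29, Stat4 by -0.06, Stat5a by -0.19 and Stat5b by -0.13.

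The guanylate-binding proteins, GTPases that attack intracellular microbes and are typical products of interferon signalling, were higher with IL-27 in 5 of the 5 members tested, out of 11 listed. Over all 11971 genes tested, 46 were called higher. Gbp8 was at 13.35, 13.12 and 13.4 with IL-6 and at 14.25, 14.27 and 14.4 with IL-27, a difference of 1.01 ± 0.10 (adjusted p = 3.53e-05). Gbp7 differed by 0.92 ± 0.11 (adjusted p = 0.000143) and Gbp6 by 0.81 ± 0.12 (adjusted p = 0.00266). Gbp3 (1.06 ± 0.22, adjusted p = 0.0453) and Gbp2 (0.83 ± 0.18, adjusted p = 0.0491) were close to the threshold, and both missed it without the pair of arrays that stand apart, where 3 of 5 remained. Gbp2 was at 15.23, 15.09 and 15.27 with IL-6 and at 15.93, 16.13 and 16.01 with IL-27, above 99.9% of genes, and the highest mean of any gene was 16.25. The other Gbp2 probe set gave 0.39 ± 0.26 and did not pass when every probe set was tested on its own. The median over the 5 genes was 0.92. Members of this family are close in sequence, and signal from one gene on another's probes was not tested.

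Immunity-related GTPases, which act on the vacuoles of parasites and bacteria, were higher in 3 of 6 members tested out of 11 listed, beside 46 of all 11971 genes. Iigp1 was at 14.37, 13.95 and 13.97 with IL-6 and at 15.02, 15.04 and 14.9 with IL-27 (0.89 ± 0.15, adjusted p = 0.00647). Ifi47 differed by 0.47 ± 0.08 (adjusted p = 0.00415), and Irgm1, at 12.92, 12.9 and 12.9 with IL-6 and at 13.64, 13.79 and 13.72 with IL-27, by 0.81 ± 0.17, with an adjusted p of 0.0499 that makes it the last gene inside the threshold. Igtp stood at 15.67, 15.53 and 15.61 with IL-6 and at 15.78, 15.54 and 15.77 with IL-27, and these overlapping values differed by 0.09 (95% interval -0.15 to 0.34). With IL-27 the means of Igtp (15.7), Ifi47 (15.42) and Iigp1 (14.99) lay above those of 99.8%, 99.7% and 99.5% of genes, near the highest mean of 16.25, and whether the scale limits differences there was not tested. Irgm2 differed by 0.69 ± 0.17 without passing (adjusted p = 0.103). Without the pair of arrays that stand apart the count was again 3 of 6, with Irgm2 in place of Irgm1.

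Of 58 antiviral effectors tested 4 were higher with IL-27, and 12 had an unadjusted p under 0.05, all of them higher. Over all 11971 genes tested, 46 were called higher and 353 were higher at an unadjusted p under 0.05. The 4 were Samhd1 (0.67 ± 0.11, adjusted p = 0.00338), which depletes deoxynucleotides and had a mean of 15.61 with IL-27, above 99.8% of genes, the ADP-ribosyltransferases Parp9 (0.67 ± 0.12) and Parp14 (0.76 ± 0.13), and Dtx3l, the ubiquitin ligase that pairs with Parp9 (0.69 ± 0.14). The median of the list was 0.11, with 36 members above 0 and 22 below. In 11 members all IL-27 arrays lay above all IL-6 arrays, as they did in 4.57% of all genes tested. The oligoadenylate synthetases Oas1a, Oas2 and Oas3 differed by 0.00, 0.00 and -0.14, Mx1 by -0.49 and Rsad2 by -0.25, none of them past the test. Against medium, 42 of the 58 had risen with IL-6 and 45 with IL-27, beside 202 and 392 of all 11971 genes tested. No gene of MHC class I and antigen processing passed among 19 tested, with 8 at an unadjusted p under 0.05, all higher; the immunoproteasome subunits Psmb9 and Psmb8 differed by 0.51 ± 0.16 and 0.36 ± 0.10, and the peptide transporter Tap1 by 0.38 ± 0.19. Psmb8, Psmb9, Erap1 and H2-M3, and 7 of the antiviral effectors, passed as higher without the pair of arrays that stand apart.

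Cd274, whose product PD-L1 restrains T cells that carry PD-1, responded to both cytokines without STAT3. It was at 8.26, 8.81 and 8.77 in medium, 11.96, 11.48 and 11.5 with IL-6, and 13.2, 13.36 and 12.87 with IL-27. No IL-27 array reached down to the IL-6 arrays, and the difference was 1.5 ± 0.17 (2.83-fold, 95% interval 1.13 to 1.87, adjusted p = 0.000143). IL-6 alone had raised it by 3.03 ± 0.17 and IL-27 by 4.53 ± 0.17 against the same medium arrays. The other PD-1 ligand, Pdcd1lg2, stood at 7.57, 7.82 and 8.04 with IL-6 and at 7.6, 7.81 and 7.9 with IL-27, a difference of -0.04 (95% interval -0.49 to 0.41). Of 23 checkpoint and costimulatory genes Cd274 was the only one to pass, and the median of the list was -0.04. Without the pair of arrays that stand apart, Cd274 differed by 1.79, and Cd69 and Cd200 passed as lower with IL-27; Cd69 was among the leading genes of the component that splits the arrays.

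**Figure D3:**
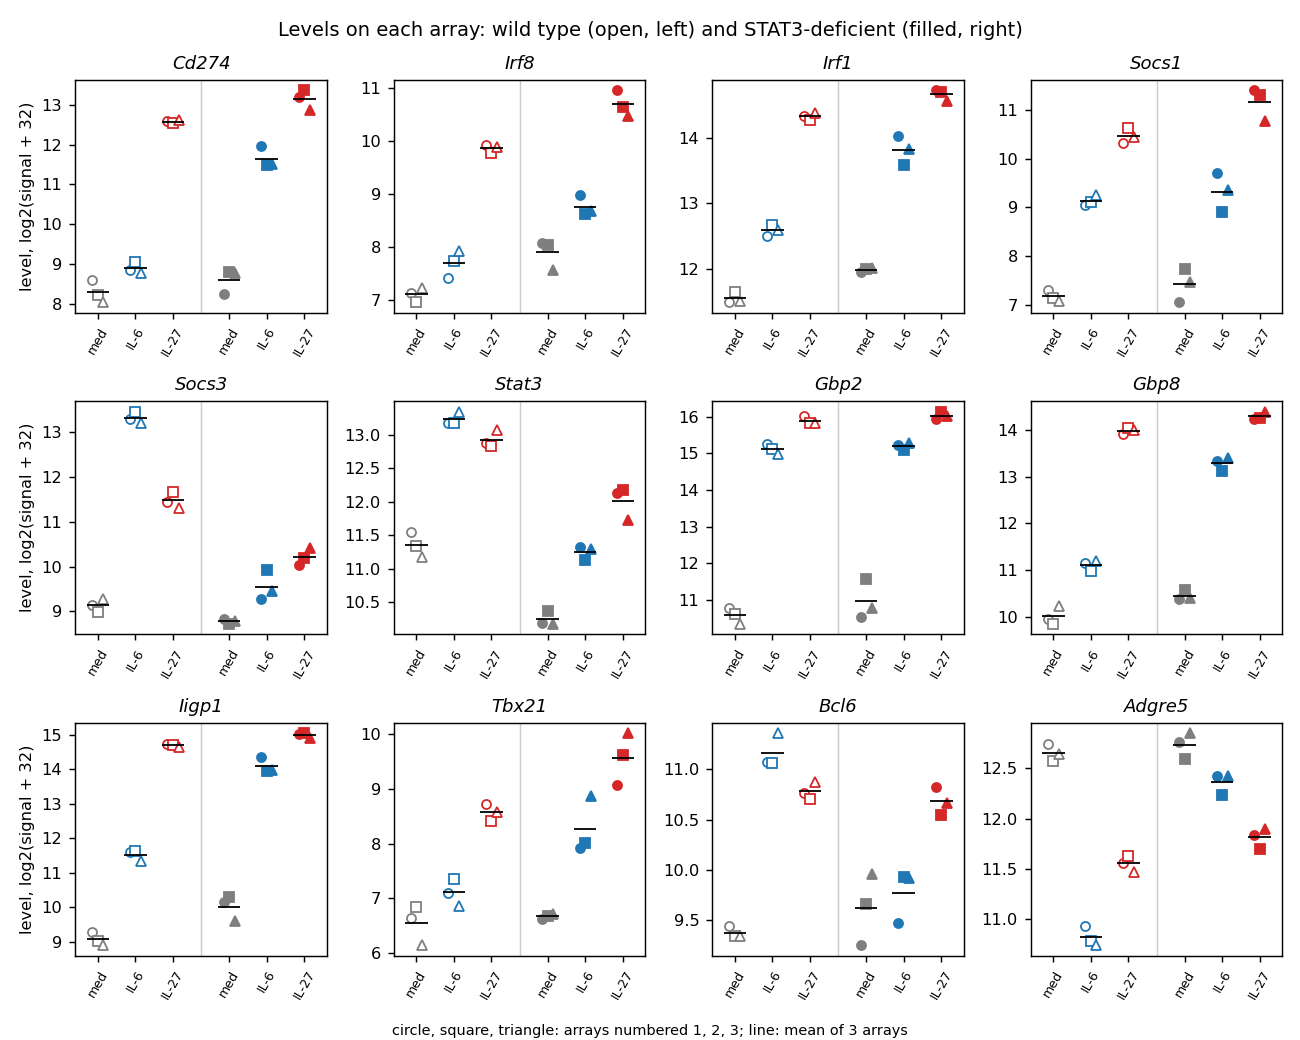
Log2 levels of 12 genes on every array, wild type on the left of each panel (open symbols) and STAT3-deficient on the right (filled symbols), in medium (grey), with IL-6 (blue) and with IL-27 (red); lines are means of 3 arrays. In STAT3-deficient cells the red points lie above the blue points for all genes but Adgre5, whereas in wild type cells Socs3, Stat3 and Bcl6 lie higher with IL-6.

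Among the genes that direct T helper fate, Tbx21 and Bcl6 were higher with IL-27. Tbx21 encodes T-bet, the master regulator of the Th1 program. Its log2 level was 6.61, 6.67 and 6.71 in medium, 7.91, 8.01 and 8.88 with IL-6 and 9.08, 9.63 and 10.02 with IL-27, so that the highest IL-6 array lay just under the lowest IL-27 array. The difference of 1.32 ± 0.27 passed (adjusted p = 0.0404), but it was 0.92 and did not pass without the pair of arrays that stand apart. Of 11 Th1 genes it was the only one called, and Il12rb2, the inducible chain of the IL-12 receptor, missed the threshold at 7.19, 6.07 and 6.74 with IL-6 against 8.1, 7.98 and 7.96 with IL-27 (1.35 ± 0.36, adjusted p = 0.202). Bcl6, the repressor that defines follicular helper cells, was at 9.25, 9.66 and 9.96 in medium, 9.47, 9.93 and 9.92 with IL-6 and 10.83, 10.55 and 10.67 with IL-27. Only the IL-27 arrays left the range of the medium arrays, and the difference was 0.91 ± 0.16 (adjusted p = 0.00939). The other Bcl6 probe set gave 0.55 ± 0.14 and did not pass when every probe set was tested on its own (limma adjusted p = 0.218). Il21, a follicular helper and Th17 cytokine, was at 6.58, 6.7 and 6.93 with IL-6 and 7.75, 7.48 and 7.8 with IL-27 without passing (0.94 ± 0.29, adjusted p = 0.446). In the Th17 list of 11 Stat3 alone passed, in the Th2 list of 5 and the regulatory T cell list of 14 the count was 0, with 0 and 1 genes at an unadjusted p under 0.05, and Il10 is not analysed here.

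Cxcl10, a chemokine that draws Th1 cells through CXCR3, had the largest difference but a wide error. It stood at 7.27, 8.29 and 8.5 in medium, 9.48, 9.79 and 10.27 with IL-6 and 11.52, 12.07 and 11.99 with IL-27 (2.02 ± 0.42, 95% interval 1.13 to 2.9, adjusted p = 0.0424), and missed the threshold without the pair of arrays that stand apart (1.77). Cxcl11, of the same receptor, differed by 1.25 ± 0.44 without passing (adjusted p = 0.616). Icam1, the adhesion partner of LFA-1, was at 11.33, 11.14 and 11.22 with IL-6 and at 12.41, 11.91 and 12.01 with IL-27 (0.88 ± 0.13, adjusted p = 0.0028). Notch1, a receptor that feeds into T helper differentiation, was at 11.83, 11.2 and 11.3 with IL-6 and at 12.59, 12.38 and 12.03 with IL-27 (0.89 ± 0.15, adjusted p = 0.00604). The other Notch1 probe set gave 0.37 ± 0.14 and did not pass (limma adjusted p = 0.789). Pim2, a survival kinase, differed by 0.74 ± 0.12 (adjusted p = 0.00604), and Treml2 by 0.81 ± 0.15 (adjusted p = 0.0134). The other Treml2 probe sets gave 0.92 ± 0.24 and -0.15 ± 0.60, and neither passed when every probe set was tested on its own. Glycolysis, cell cycle, ribosomal protein, heat shock, survival, T cell receptor and activation lists gave 0 calls each among 13, 20, 14, 16, 25, 14 and 32 genes, with 1, 0, 0, 0, 4, 3 and 2 genes at an unadjusted p under 0.05. In the activation list, Jun gave 0.97 ± 0.41 and was not called. Its other probe set gave 0.94 ± 0.17 and passed when every probe set was tested on its own (limma adjusted p = 0.0184). Rpl10a, Hsp90aa1 and 3 activation genes (Cd69, Dusp2 and Btg1) passed as lower with IL-27 without the pair of arrays that stand apart.

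Of the 47 called genes, 25 belonged to none of the lists. Cyp2s1, a cytochrome P450 enzyme, was at 9.1, 9.01 and 8.82 in medium and at 9.37, 8.68 and 9.27 with IL-6, and reached 10.7, 10.63 and 10.81 with IL-27, a difference of 1.61 ± 0.19 (adjusted p = 0.000172). Ppa1, which cleaves pyrophosphate, was at 11.05, 10.93 and 11.13 with IL-6 and at 12.19, 12.04 and 12.25 with IL-27 (1.12 ± 0.11, adjusted p = 2.12e-05). Both genes had groups that stood well apart relative to their spread. Calhm6, of the calcium homeostasis modulator family of channels, differed by 1.60 ± 0.25 (adjusted p = 0.0028). Its standard deviations were 0.68 with IL-6 and 0.46 with IL-27, against 0.05 and 0.06 in wild type, and the SE pools all groups. Wars, the tryptophanyl-tRNA synthetase induced by interferon, differed by 1.27 ± 0.18 (adjusted p = 0.00139). Gsap, which binds gamma-secretase, differed by 1.88 ± 0.39 (adjusted p = 0.0432), while its other probe sets gave 0.27 and 0.63 without a call and the call was kept in 11 of 25 alternatives. Vav3, a guanine nucleotide exchange factor, differed by 1.45 ± 0.29 (adjusted p = 0.029). Daam1, a formin that assembles actin, was at 9.4, 9.03 and 9.28 with IL-6 and at 10.41, 10.23 and 10.01 with IL-27, while in medium it had been at 9.2, 9.36 and 9.42. The other Daam1 probe set gave 0.14 ± 0.30 and did not pass when every probe set was tested on its own. Further genes outside the lists were the transcription regulators Arid5b (0.86 ± 0.13) and Etv6 (0.77 ± 0.10) and the Rap exchange factor Rapgef6 (0.81 ± 0.10). The probe sets that stand for Wars and Socs3, among others, are of a type that the manufacturer marks as open to signal from other transcripts. Each gene has another probe set not of this type that passed when every probe set was tested on its own. These gave 1.01 ± 0.13 for Wars (limma adjusted p = 0.000314) and 1.12 ± 0.20 for Socs3 (limma adjusted p = 0.0119).

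Only Adgre5 was lower with IL-27. It encodes CD97, an adhesion receptor of leukocytes, and stood at 12.76, 12.59 and 12.85 in medium, 12.43, 12.24 and 12.43 with IL-6 and 11.84, 11.7 and 11.9 with IL-27. All IL-27 arrays lay below all IL-6 arrays, as 3.61% of genes did, and the difference was -0.55 ± 0.09 (adjusted p = 0.00647). It was not called with median centring (adjusted p = 0.87) or in the models of only the 9 or only the 6 STAT3-deficient arrays (0.11 and 0.19). Just outside the threshold followed Crip1 (-0.56 ± 0.12) and Lat, the adaptor of the T cell receptor (-0.33 ± 0.07), both with an adjusted p of 0.0505. Of 21 genes of the naive state and of homing, 19 lay below 0, with a median of -0.17. None of the 19 passed; 1 of the 21, Treml2, passed as higher, and of the 7 with an unadjusted p under 0.05 that gene was the only one above 0. Klf3, a regulator of homing receptors, differed by -0.39 ± 0.12 (adjusted p = 0.418), Bach2, a repressor that preserves the resting state, by -0.28 ± 0.08 (adjusted p = 0.225) and Lef1 by -0.26 ± 0.11 (adjusted p = 0.83). Without the pair of arrays that stand apart, Klf3 and S1pr1, the receptor for exit from lymph nodes, passed as lower.

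Each cytokine's own change against medium puts these differences in proportion. In STAT3-deficient cells IL-6 changed 221 genes, 1.85% of those tested, with 202 higher and 19 lower, and IL-27 changed 596 genes, 4.98%, with 392 higher and 204 lower. Both counts rest on the same 3 medium arrays. All 46 genes that were higher with IL-27 than with IL-6 had risen above medium with IL-27, and 33 of them had risen with IL-6 too. Measured as a share of the log2 rise with IL-27, the rise with IL-6 had a median of 54.5% over the 46 genes. These genes were selected for a higher level with IL-27 on the same arrays. The selection holds the share down, so it does not measure the strength of IL-6 in general. That share was highest in the GTPases, at 84.4% for Gbp6 (4.39 with IL-6, 5.20 with IL-27), 83.6% for Gbp2 and 82.1% for Iigp1; the levels of Gbp2 and Iigp1 with IL-27 were near the top of the scale. It was 66.9% for Cd274, 50.7% for Socs1 and 30.9% for Irf8. In Cyp2s1 it was 7.7% (0.13 with IL-6, 1.74 with IL-27) and in Bcl6 14.6% (0.15 and 1.06), and in Daam1, Vmp1 and Arhgap12 the value with IL-6 was just below 0. The 13 genes called with IL-27 only, which include Calhm6, Gsap, Vav3, Notch1 and Rapgef6, had values with IL-6 that did not pass, which is not evidence that IL-6 left them unchanged. Adgre5 moved the other way, by -0.37 with IL-6 (adjusted p = 0.0508) and by -0.91 with IL-27.

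**Figure D4:**
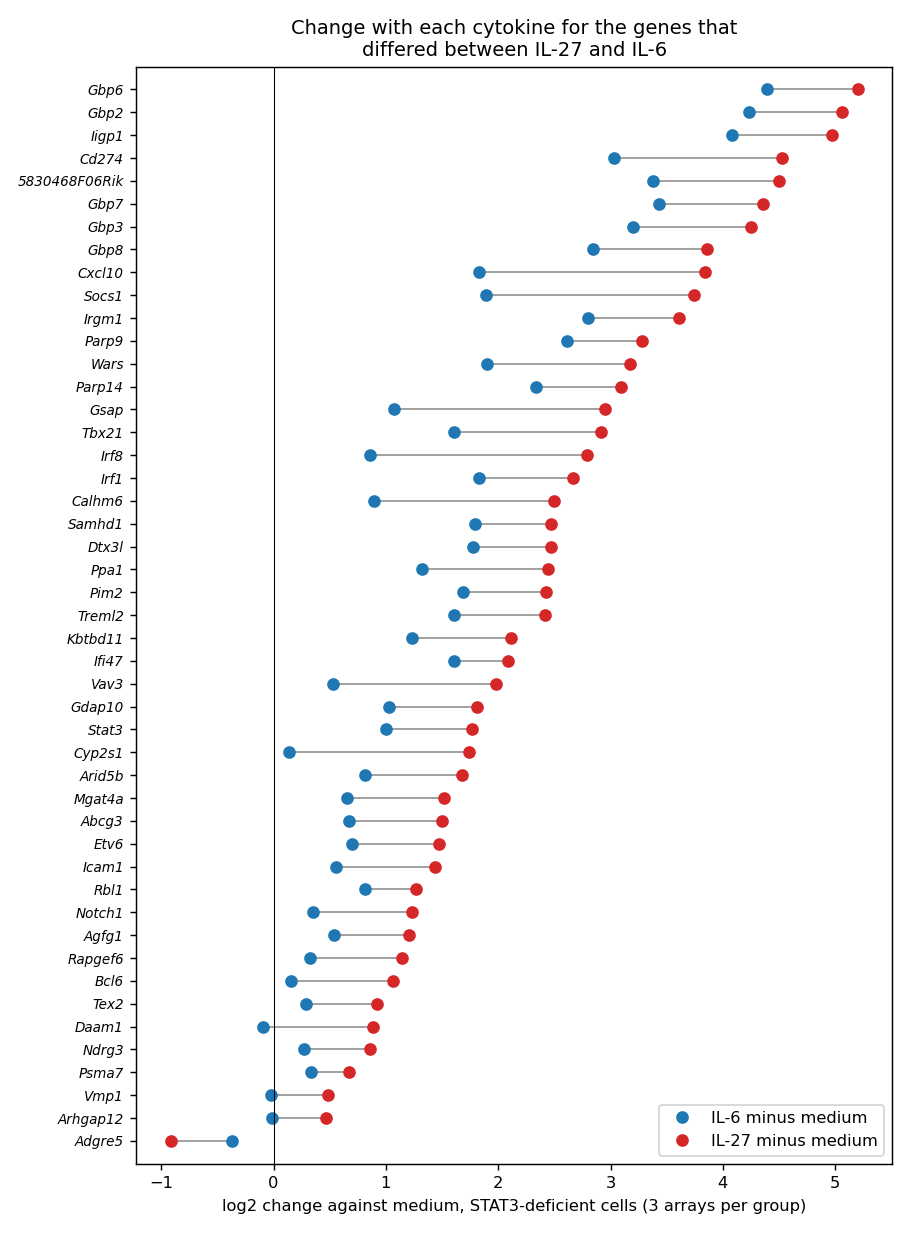
Log2 change against medium in STAT3-deficient cells with IL-6 (blue) and with IL-27 (red) for the 47 genes that differed between the cytokines, ordered by the change with IL-27; each value is a difference of means of 3 arrays. The gap between the points is the difference described in the text: narrow relative to the rise for Gbp6 and Gbp2, wide for Irf8, Gsap and Cyp2s1, and reversed for Adgre5.

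In wild type cells the same comparison called 376 genes, 3.14% of those tested, of which 212 were higher and 164 lower with IL-27. It shares no array with the STAT3-deficient comparison. The 212 and the 164 genes were selected on their wild type values, so their wild type medians are drawn away from 0 by that selection. The 212 genes had a median of 0.75 in wild type and of 0.14 without STAT3, where 145 were above 0, 28 were called higher and 1 lower. The 164 genes lower with IL-27 in wild type had a median of -0.76 there and of -0.01 without STAT3, with 77 above 0 and 87 below; 4 of them, Arid5b, Etv6, Ndrg3 and Vmp1, were called higher with IL-27 without STAT3. Among the 46 genes higher with IL-27 without STAT3, 28 were also called higher in wild type, those 4 lower, and 14 neither way. The difference between the genotypes was itself tested as an interaction, which called 148 genes, 1.24% of those tested. Of these, 78 had a more positive IL-27 minus IL-6 value without STAT3 and 70 a more negative one, while 70 of the 78 and 60 of the 70 were not called without STAT3. Of the 78, 2 genes (Serpinb1a and Plscr1) passed the filter on dim probe sets through the wild type IL-6 arrays alone.

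The positive side of the interaction was mostly made of genes for which IL-27 gave the lower level in wild type cells. Of the 78 genes, 69 were called lower with IL-27 in wild type, and the medians of the 78 were -0.88 in wild type and 0.11 without STAT3. Genes on both sides of the interaction were selected on a value that contains the wild type difference. The sign and size of their wild type values therefore follow partly from the selection. Map3k8, a kinase upstream of ERK, was at 10.11, 10.39 and 10.39 with IL-6 and at 7.91, 7.9 and 6.97 with IL-27 in wild type. In STAT3-deficient cells it was at 7.56, 7.78 and 8.29 against 7.93, 8.23 and 8.37, and the genotypes differed by 3.00 ± 0.34 (adjusted p = 3.84e-05). Igfbp4, a binding protein for insulin-like growth factors, gave -2.38 in wild type and -0.09 without STAT3 (interaction adjusted p = 9.98e-08). Socs3 was lower with IL-27 by 1.84 ± 0.15 in wild type cells and gave 0.66 ± 0.15 without STAT3, a difference of 2.5 ± 0.21 (adjusted p = 1.8e-06). Bcl3 gave -0.99 and 0.65 (interaction 1.64 ± 0.21, adjusted p = 0.000225), and Il6st gave -1.10 and 0.15 (interaction 1.25 ± 0.16, adjusted p = 0.000234). Of 36 reported STAT3 targets, 11 were called lower and 1 higher with IL-27 in wild type. Without STAT3, 3 were called higher (Bcl6, Pim2 and Stat3), and 9 had a positive interaction, among them Hif1a, Junb, Batf and Arid5a. Over all 11971 genes tested, 164 were called lower and 212 higher in wild type, 46 were called higher without STAT3, and 78 had a positive interaction.

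The signs were opposite in the genotypes, with a call in both, for Etv6, Vmp1, Ndrg3, Arid5b and Adgre5. Etv6, a transcriptional repressor, was at 11.29, 11.26 and 11.09 with IL-6 and 10.64, 10.6 and 10.67 with IL-27 in wild type, and at 9.52, 9.46 and 9.41 against 10.34, 10.25 and 10.11 without STAT3. The order of the cytokines was opposite in the genotypes with no overlap in either, and the interaction was 1.35 ± 0.15 (adjusted p = 2.54e-05). Vmp1, which acts in autophagy, gave -0.98 and 0.51 (interaction 1.5 ± 0.15, adjusted p = 1.35e-05). Its call without STAT3 was kept in 10 of 25 alternatives. When every probe set was tested on its own, that probe set did not pass without STAT3 (limma adjusted p = 0.0642). The other Vmp1 probe set gave 0.09 ± 0.16 there and did not pass either. Ndrg3 gave -0.62 and 0.59, and Arid5b gave -0.54 and 0.86. Bcl6 and Stat3 gave -0.38 and -0.31 in wild type, where neither passed, and their interactions of 1.28 ± 0.23 and 1.07 ± 0.17 did (adjusted p = 0.00431 and 0.00168). Adgre5 turned the other way, with 0.73 in wild type and -0.55 without STAT3 (interaction -1.28 ± 0.13, adjusted p = 1.35e-05); in wild type its level was 12.57 to 12.74 in medium, 10.74 to 10.93 with IL-6 and 11.47 to 11.63 with IL-27.

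The negative side of the interaction was led by interferon-type genes whose gap between the cytokines was wider in wild type. Cd274 in wild type was at 8.85, 9.06 and 8.77 with IL-6 and at 12.58, 12.54 and 12.61 with IL-27, a difference of 3.68 ± 0.17 against 1.5 ± 0.17 without STAT3 (interaction -2.18 ± 0.25, adjusted p = 3.91e-05). Its level with IL-6 was thus at most 9.06 on the 3 wild type arrays and at least 11.48 on the 3 STAT3-deficient arrays, while its levels with IL-27 were closer. Gbp8 followed the same order, at 11.16, 10.98 and 11.19 with IL-6 and 13.92, 14.05 and 14.02 with IL-27 in wild type (interaction -1.87 ± 0.14, adjusted p = 7.38e-07). Iigp1 gave 3.17 in wild type (interaction -2.28 ± 0.21), Irgm1 gave 3.21 (-2.40 ± 0.25), Gbp6 gave 2.72 (-1.91 ± 0.17) and Igtp gave 2.05 (-1.96 ± 0.16). Negative interactions were called in 3 of the 5 guanylate-binding proteins and 5 of the 6 immunity-related GTPases, beside 70 of all 11971 genes tested. Over the 5 guanylate-binding proteins the median difference was 1.82 in wild type and 0.92 without STAT3. Over the 6 immunity-related GTPases it was 2.12 and 0.75. The same was not measured for every interferon-type gene: Irf8 gave 2.16 and 1.93, Gbp2 0.76 and 0.83, Cxcl10 2.60 and 2.02, and Socs1 1.33 and 1.84, and none of these interactions passed (adjusted p from 0.748 to 0.999). Across the 46 genes, 9 interactions were negative, 8 positive and 29 did not pass.

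**Figure D5:**
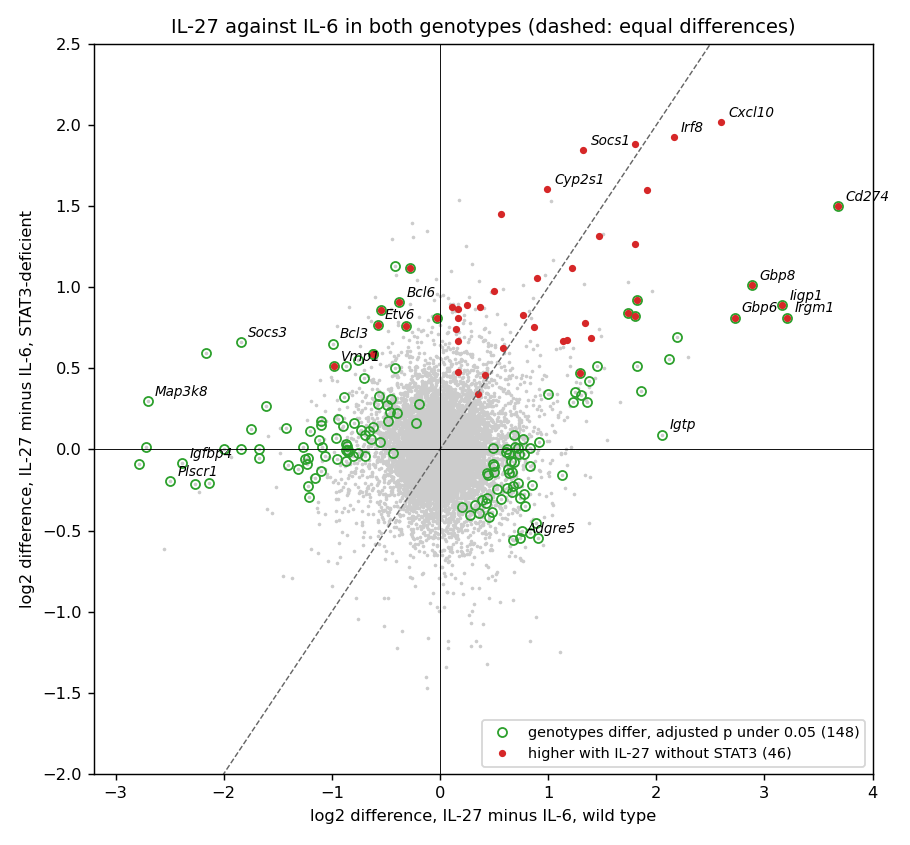
Log2 difference between IL-27 and IL-6 in STAT3-deficient cells (vertical axis) against the same difference in wild type cells (horizontal axis), one grey point per gene; green circles are the 148 genes whose difference depended on genotype and red points the 46 genes higher with IL-27 without STAT3. Many circles lie far from 0 on the horizontal axis and near 0 on the vertical axis, and the GTPases and Cd274 lie below the dashed line of equal differences. The circles were selected on the difference between the axes.

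The promoters of the 46 genes were searched for a pair of sequence motifs. The stretches with matches are shown for 9 genes, picked from those that hold a match. A window of 250 bases before to 50 after a transcript start (RefSeq, build GRCm38.p6) was found for 36 of the 46 genes. The first motif is the palindrome TTCNNNGAA, the gamma-activated site to which STAT dimers bind. The second is GAAA, any 2 bases and GAAA again, on either strand, a short form of the element that interferon regulatory factors bind. The gamma-activated site was in a window of 8 of the 36 genes (22.2%) against 8.4% of the 9682 tested genes with a window, and the interferon-type element in 8 (22.2%) against 3.67%. At least 1 of the motifs was in 14 of 36 genes (38.9%, against 11.5%). Matches are in capitals below, on the strand of the gene, 5′ to 3′. The first group shows the gamma-activated site.
Irf1: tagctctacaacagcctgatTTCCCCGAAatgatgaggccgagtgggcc
Irf8: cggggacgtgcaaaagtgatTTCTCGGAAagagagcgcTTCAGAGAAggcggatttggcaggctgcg
Icam1: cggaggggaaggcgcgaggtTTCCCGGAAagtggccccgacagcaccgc
Bcl6: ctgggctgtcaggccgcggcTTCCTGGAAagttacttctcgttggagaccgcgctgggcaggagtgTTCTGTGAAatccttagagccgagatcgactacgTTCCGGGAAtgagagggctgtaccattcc

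These lie at chr11:53769904-53769952 (Irf1), chr8:120736167-120736233 (Irf8) and chr9:21015878-21015926 (Icam1) on the plus strand and at chr16:23981343-23981471 (Bcl6) on the minus strand. They are read before the annotated start: the Irf1 stretch begins 110 bases before it and the Icam1 stretch 62. Irf8 holds 2 matches and Bcl6 3; the Bcl6 stretch lies before the downstream one of 2 starts with a window. The second group shows the interferon-type element, and in Gbp7 both motifs.
Gbp7: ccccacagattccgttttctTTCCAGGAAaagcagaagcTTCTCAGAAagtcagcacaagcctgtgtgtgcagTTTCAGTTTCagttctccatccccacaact
Gbp2: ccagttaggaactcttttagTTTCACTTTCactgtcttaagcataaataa
Irgm1: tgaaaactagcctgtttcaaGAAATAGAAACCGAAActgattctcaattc
Socs1: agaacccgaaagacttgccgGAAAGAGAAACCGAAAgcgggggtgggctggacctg
Calhm6: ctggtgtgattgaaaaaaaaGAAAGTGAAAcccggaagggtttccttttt

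Gbp7 (chr3:142530210-142530312) and Gbp2 (chr3:142620584-142620633) are on the plus strand, where the element reads TTTC, 2 bases and TTTC. Irgm1 (chr11:48871421-48871470), Socs1 (chr16:10785584-10785639) and Calhm6 (chr10:34128007-34128056) are on the minus strand, and Irgm1 and Socs1 each hold 2 overlapping matches. These genes span the patterns described above: Irf8 and Socs1 differed by 1.93 and 1.84 without STAT3 with no interaction past the test, Bcl6 differed by 0.91 with the opposite sign in wild type, and Irgm1 differed by 0.81 against 3.21 in wild type. Windows of Cd274, Cyp2s1, Ppa1, Tbx21, Stat3 and others, 22 genes in all, held neither sequence, which says only that these letters are not in those windows. A match is a description of sequence, and binding was not measured in these data.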

How the data were processed

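Total RNA was hybridised to Affymetrix mouse genome arrays, 1 per sample. The authors deposited a linear intensity for each probe set, made with GCOS per the submitters' processing notes; the sources used here give neither its version nor its settings. On every array the mean after trimming 2% at each end was 500, while array medians ran from 104.4 to 190.3.

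Of 45101 probe sets, 64 controls were left out. Signals were taken as log2 of signal plus 32, which shrinks differences of dim genes, and quantile normalised with limma 3.58.1 in R 4.3.3. Probe sets brighter than the median of their array on at least 3 of 18 arrays were kept (26860). Probe sets with 1 gene symbol were used, by the platform annotation, and the one with the highest mean stood for its gene. None of the 47 called genes passed that filter through 1 group only; 2 of the 148 interaction genes did.

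One limma model, with group means for the 6 groups, was fitted over the 18 arrays (12 residual and 6.25 prior degrees of freedom, variance trend). Tests were two-sided, with Benjamini-Hochberg adjustment over all genes; errors are SEs, and values of single arrays are normalised log2 levels. Folds are 2 to the power of these differences. The procedure was tested on simulated data.

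Members and the 28 gene lists were chosen with earlier results of these data known, and a list's direction is described, not tested. The rule for named genes took, in each direction, up to 15 called genes with no overlap between arrays by size of difference and up to 6 for the interaction, a fixed set of cytokine genes, up to 5 members of each list and called members of the lists of other cell types; the other called genes, list members, Crip1 and the leading genes of the principal component were chosen after their values were seen. Alternatives covered scaling, the added constant, filters, probe set choice, variance model, array weights, covariates, blocks by sample number and leaving arrays out. The sample numbers are not explained by the labels. Deviations of same-numbered IL-6 and IL-27 arrays correlated above 0.1 in 2 of 3 pairs, so the numbers were not taken to pair the samples.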

Additional observations from a re-analysis of the deposited data

Results flagged for a closer look

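For the genes below, the IL-27 minus IL-6 difference without STAT3 minus that in wild type passed the interaction test at an adjusted p under 0.05; values are log2 with 3 arrays per group. More positive without STAT3 were Map3k8 (3.00), Slco4a1 (2.76), Serpinb1a (2.74), Gadd45g (2.70), Socs3 (2.5), Plscr1 (2.30), Igfbp4 (2.30), Bcl3 (1.64), Vmp1 (1.5), Arid5b (1.40), 5830468F06Rik (1.39), Etv6 (1.35), Bcl6 (1.28), Il6st (1.25), Ndrg3 (1.21), Stat3 (1.07), Batf (0.85) and Rapgef6 (0.84). More negative were Irgm1 (-2.40), Iigp1 (-2.28), Cd274 (-2.18), Igtp (-1.96), Gbp6 (-1.91), Gbp8 (-1.87), Adgre5 (-1.28), Abcg3 (-0.98), Gbp7 (-0.89), Irf1 (-0.89) and Ifi47 (-0.82).

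Gadd45g, a stress-inducible gene, was at 12, 12.08 and 11.95 with IL-6 and at 9.24, 9.18 and 9.24 with IL-27 in wild type cells, and at 7.83, 7.96 and 9.03 against 7.56, 8.19 and 8.8 without STAT3. Serpinb1a and Plscr1 were brighter than the array median on the 3 wild type IL-6 arrays only, and so passed the filter through the group where they were high; their values are a description. Slco4a1 was above the median on those 3 arrays and on 2 others, by a small margin, and lost its call without the filter on dim probe sets. For IL-27 minus IL-6 without STAT3, its probe set in use gave 0.60 ± 0.45 and its other probe set -1.04 ± 0.34, neither past the test.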

How the results depend on the processing

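Against 47 genes called without STAT3, median centring gave 13, no variance trend 28, only the 6 arrays compared 17, only the 9 STAT3-deficient arrays 13 and a 1.5-fold minimum (treat) 2; leaving out each array of the 2 groups in turn gave 24 to 47, with 24 and 29 without IL-6 arrays 2 and 3 and 26 and 31 without IL-27 arrays 1 and 2. Without IL-6 array 1 and IL-27 array 3 the count was 191, and the share of calls higher with IL-27 fell from 97.9% to 64.4%. In that set the cytokine cannot be told apart from the first principal component. The interaction called 148 genes, against 56 with median centring, 252 with array weights and 18 with the 1.5-fold minimum. A replicate block by sample number as a fixed term gave 74 calls without STAT3, of which 83.8% were higher, and 306 for the interaction; as a random block it gave 225 for the interaction. The sample numbers have no stated meaning, and in their deviations from the group means 4 of 6 arrays correlated best with the array of their own number in the other cytokine group. Over 25 alternatives, none of the 47 calls was counted as reversed. Where every probe set was tested on its own, the probe set nearest the main value stood for its gene, so a reversal could hardly be counted there. Other probe sets of Arhgap12 (-0.19), Rbl1 (-0.13) and Treml2 (-0.15) lay below 0. Counted in this way, 812 of 1175 gene and setting pairs kept the call and 363 lost it. Irf8 and Socs1 kept it in all 25, and Cyp2s1, Cd274, Ppa1, Gbp8, Irf1, Gbp7 and Rapgef6 lost it only under the 1.5-fold minimum. Cxcl10 and Tbx21 kept it in 9, Gbp3 and Gbp2 in 8 and Irgm1 in 10. The cause of these changes was not tested. With 3 arrays per group and a median SE of 0.185, small differences could not be detected.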

Other observations

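Several genes followed the number in the sample name and not the cytokine. Gdpd3, a phospholipase, was at 12.91, 13.03 and 13.07 on the STAT3-deficient arrays numbered 3 (medium, IL-6 and IL-27) and between 7.72 and 8.22 on the other 6, and between 7.92 and 8.41 in wild type. The immediate early gene Fos was at 13.33, 13.09 and 13.11 on the arrays numbered 3, and between 10.97 and 11.86 on the others; Egr2, another immediate early gene, was at 11.44, 11.43 and 11.42 there and between 9.13 and 10.31 elsewhere. H2-Aa, an MHC class II chain of antigen-presenting cells, was at 8.95, 9 and 8.83 on the arrays numbered 3 and between 10.08 and 10.55 on the others, against at most 7.65 in wild type. S100a9, a neutrophil gene, was at 9.45, 9.33 and 9.12 on the arrays numbered 3 and between 10.63 and 11.48 on the others, and Igha, an antibody chain, at 10.52, 9.72 and 10.46 against 12.27 to 12.55. None of these genes differed between IL-27 and IL-6 by more than 0.29 on the log2 scale.

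Oasl2, an antiviral gene of the oligoadenylate synthetase family, was at 5.7, 6.81 and 7.18 in STAT3-deficient cells in medium. With IL-6 it was at 6.8 in sample 1 and at 10.76 and 11.18 in the other samples, and with IL-27 at 7.48 in sample 1 and at 11.14 and 11.83 in the others. The difference between the cytokines was 0.57 ± 0.97.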
